A study of Homo sapiens with 4 samples.

Results

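Presynaptic vesicle and release genes encode the proteins that store neurotransmitter in synaptic vesicles, dock and fuse those vesicles at the nerve terminal and recover their membrane afterwards. The set described here holds 47 genes, chosen by gene symbol from general knowledge of the synapse, with earlier results of these data known. Comparisons of the set with all genes are therefore descriptions. The symbols were looked up in the deposited gene and transcript counts. All 47 were found among the 77973 genes of the annotation. Of these, 40 had a mean of at least 20 reads over the 4 libraries and entered the tests, as did 8145 genes in all. The 7 below that minimum were SYN2, SYP, SV2C, VAMP1, CPLX1, SH3GL2 and SLC32A1.

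Release begins when a vesicle filled by a vesicular transporter is brought to the active zone, a protein scaffold at the terminal membrane built from RIM, Bassoon, Piccolo, ELKS and liprin proteins. Rab3 GTPases on the vesicle bind RIM, and the SNARE proteins synaptobrevin (VAMP), syntaxin and SNAP-25 then pull the membranes together under the control of complexin and of the calcium sensor synaptotagmin. Clathrin adaptors, amphiphysins, dynamin and synaptojanin recover the membrane, and presynaptic neurexins hold the terminal to its postsynaptic partner.

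Full-length complementary DNA was sequenced on the PacBio platform from polyadenylated RNA of induced cortical neurons. The neurons came from KOLF2.1J, a human iPSC line in wide laboratory use, in a derivative that expresses the neuronal transcription factor NGN2 under doxycycline and carries dCas9-BFP-KRAB for CRISPR interference in every group. Puromycin-selected pools of cells held a lentiviral guide RNA that targeted either no gene or TDP-43, an RNA-binding protein that controls splicing. Cultures were kept without or with 5 µM 5-azacytidine, an inhibitor of DNA methyltransferases, for 72 hours. The 4 groups are called control (non-targeting guide), knockdown (TDP-43 guide), azacytidine (non-targeting guide with 5-azacytidine) and combined (TDP-43 guide with 5-azacytidine). Each group had 1 library. The labels allow more than one harvest day and do not say which was used.

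The libraries held 595158 (control), 767621 (knockdown), 466337 (azacytidine) and 477622 (combined) reads assigned to genes. TARDBP, the gene of TDP-43, had 104, 72, 73 and 43 reads in the same order, a log2 ratio of -0.67 without and -0.73 with azacytidine. The adjusted p-values of the two-sided exact binomial test were 0.017 and 0.0573, so only the first pair passed. The summed level of 10 general neuron markers lay between 2707 and 3318 CPM (reads scaled to the TMM-adjusted library size). Its members did not move together: MAP2 had 540, 761, 319 and 162 reads and NEFL 343, 360, 250 and 114, while RBFOX3 had 35, 39, 90 and 131. Other marker lists moved with azacytidine: 8 proliferation markers summed to 773 (control) and 751 (knockdown) CPM but to 87.0 (azacytidine) and 90.8 (combined). Likewise 8 neural progenitor markers summed to 824 and 757 CPM without and to 176 and 138 with azacytidine, PAX6 giving 290, 313, 3 and 4 reads. PAX6 thus held 290 of the 511 control reads of that list, and its members differed. NES had 64, 53, 36 and 42 reads and HES5 had 3, 4, 2 and 2. A further 6 mesenchymal markers summed to 115 and 109 without and to 16.2 and 4.13 with it. Their part in the azacytidine differences below was not tested. In bulk RNA, fewer cells of a type and less RNA per cell cannot be told apart.

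The 47 genes together took a small share of each library. They had 2875 reads in the control, 4226 in the knockdown, 2978 in the azacytidine and 2858 in the combined library. These are 0.483%, 0.551%, 0.639% and 0.598% of the library's reads (95% Wilson interval of the lowest 0.466 to 0.501%, of the highest 0.616 to 0.662%, covering counting error only). The share was lowest in the control library. The single genes ranged from SLC32A1 with 1, 1, 2 and 2 reads to SYT1 with 213, 309, 202 and 146 reads, the most in total over the libraries. The plot of levels by library shows every gene.

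**Figure D1:**
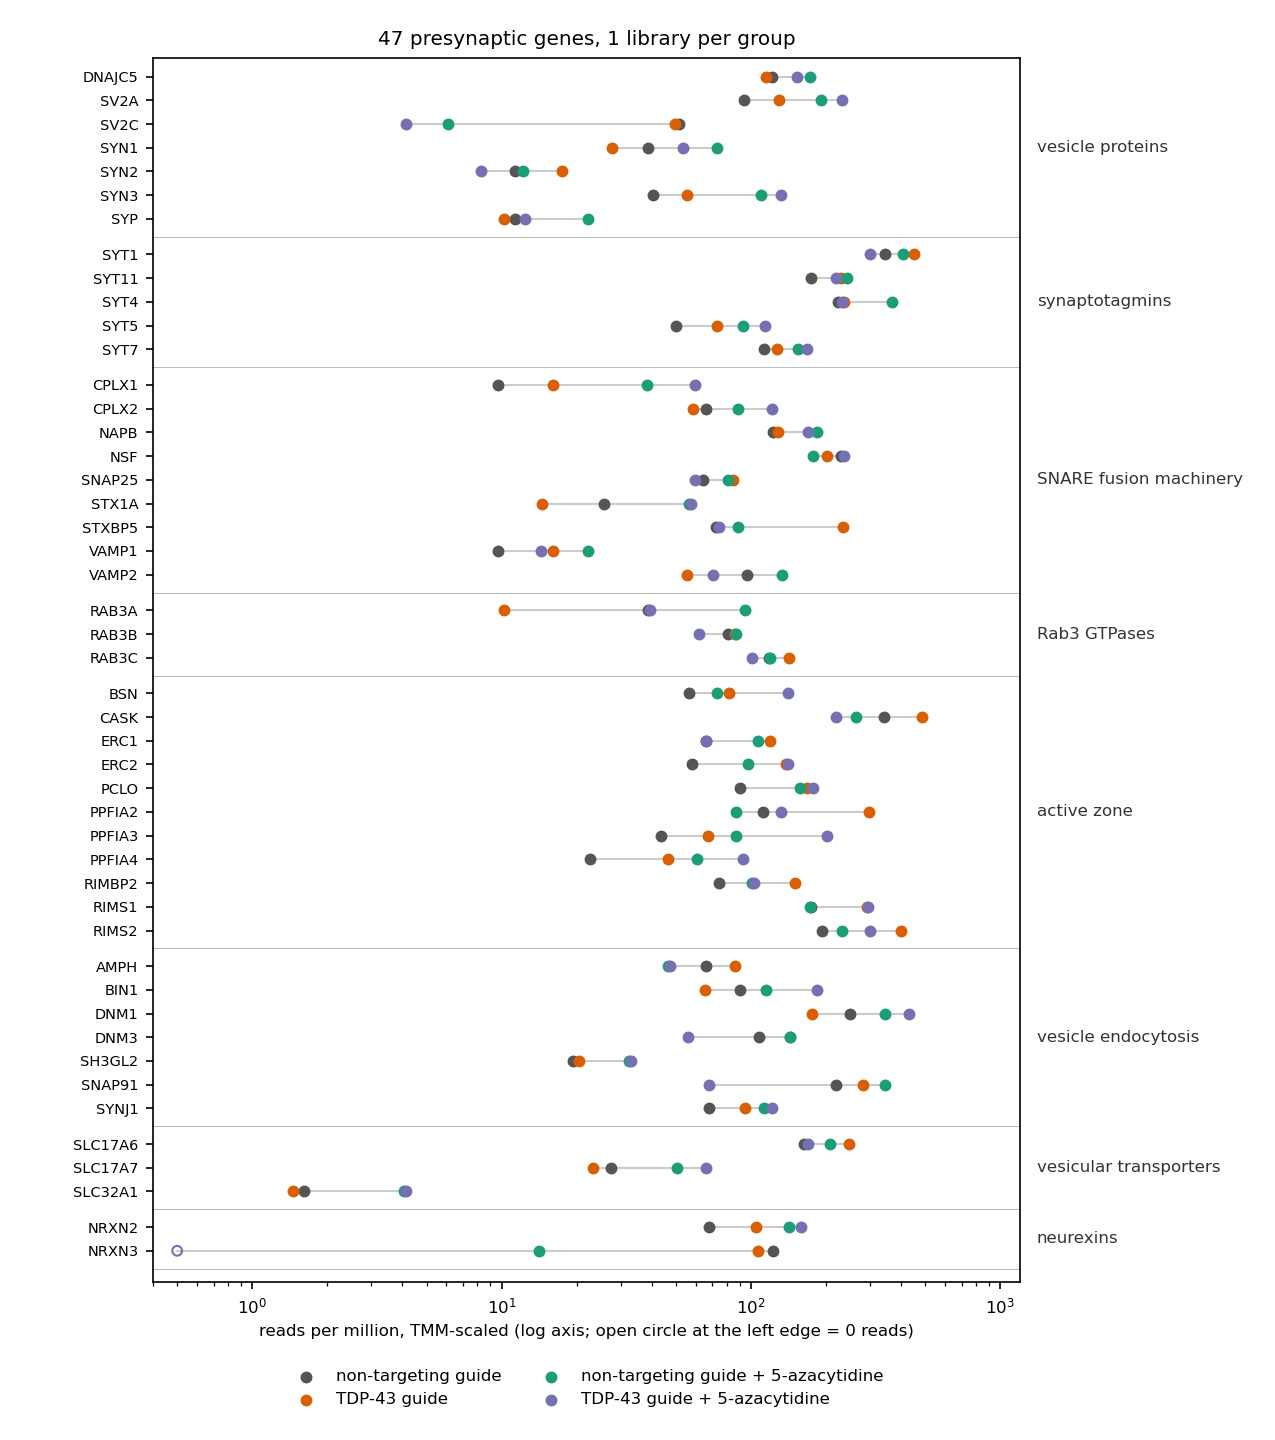
Level of each of the 47 genes (rows, grouped by role) in CPM with TMM-scaled library sizes on a log axis; each point is 1 library and the grey line spans the 4. RAB3A lies between 10.2 and 95.1 CPM, and NRXN3 and SV2C are low in both libraries with 5-azacytidine.

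A gene was called when the two-sided exact binomial test gave a Benjamini-Hochberg adjusted p-value under 0.05 and the log2 ratio reached 1, with the same sign, in each of 2 pairs made of different libraries. The knockdown pairs were knockdown against control and combined against azacytidine. The azacytidine pairs were azacytidine against control, and the combined library against the knockdown library. Such a test compares the reads of libraries, not conditions, and with 1 library per group no difference has a replicate check. Both comparisons use the same 4 libraries, so they are not independent of each other. By this rule 0 of 40 members were higher and 1 was lower with the knockdown, beside 0.626% of all genes tested called higher and 0.344% called lower. With azacytidine 2 of 40 members were higher and 1 was lower, beside 2.93% and 6.86% of all genes. In the crosswise pairing, which sets knockdown over control beside azacytidine over combined, 0 of 40 members passed in either direction, beside 0.405% and 0.135%.

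The members as a whole did not move alike in the 2 knockdown pairs. Their median log2 ratio was 0.40 without azacytidine (0.18 over all 8145 genes) and 0.03 with it (0.05 over all genes). Above 0 lay 29 and 22 of 40 members, beside 5251 and 4367 of all genes. For azacytidine the median was 0.47 with the non-targeting guide (0.05 over all genes). There 34 of 40 members lay above 0, beside 4335 of all 8145 genes. With the TDP-43 guide the median was 0.15 (-0.09 over all genes), and 23 of 40 lay above 0, beside 3698 of all genes. The all-gene median of the first knockdown pair depends on scaling, at 0.18 with TMM factors and -0.04 with total counts. The members' median there was 0.17 with total counts.

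Single pairs called more members than both pairs together. In knockdown against control, 11 of 40 members passed the test as higher and 3 as lower at any fold (16.4% and 3.73% of all genes), and 5 and 1 at a log2 ratio of at least 1 (6.19% and 2.15%). In combined against azacytidine, 4 and 6 passed (9.09% and 5.93%), and 1 and 3 at that ratio (4.51% and 3.94%). In azacytidine against control, 12 and 1 passed (12.2% and 13.8%), and 5 and 1 at that ratio (6.65% and 9.93%). The combined library against the knockdown library gave 12 and 11 (16.8% and 25.5%), and 8 and 6 at that ratio (9.56% and 16.9%).

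**Figure D2:**
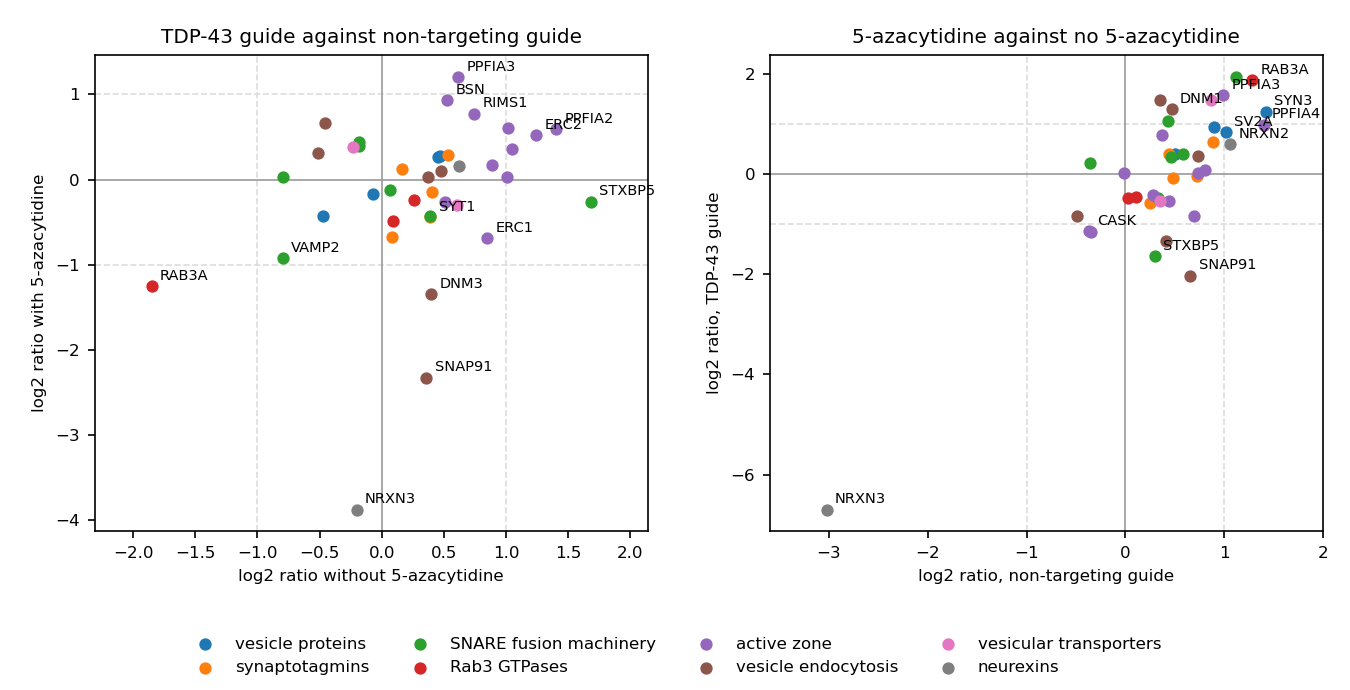
Log2 ratios of the 40 members tested in the pairs used for the knockdown (left) and for 5-azacytidine (right); each point is 1 gene coloured by role, and dashed lines mark a log2 ratio of 1 in either direction. RAB3A lies beyond the lower lines on the left and the upper lines on the right; NRXN3 had 0 reads in the combined library, so its vertical position depends on the pseudocount.

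The Rab3 GTPases, which tie vesicles to RIM at the release site, differed among themselves. RAB3A (ENSG00000105649.10, chromosome 19, 18196784 to 18204042, minus strand, hg38), the form most often studied in brain, had 24 reads in the control, 7 in the knockdown, 47 in the azacytidine and 19 in the combined library. Each library with the TDP-43 guide was below its partner, and each library with azacytidine was above its partner. RAB3A fell with the knockdown by 3.61-fold without azacytidine (log2 ratio -1.85, 95% exact interval -3.38 to -0.66, adjusted exact p = 0.00789). With azacytidine it fell by 2.39-fold (log2 -1.26, -2.13 to -0.48, adjusted exact p = 0.0091). It rose with azacytidine by 2.43-fold with the non-targeting guide (adjusted exact p = 0.00218) and by 3.68-fold with the TDP-43 guide (adjusted exact p = 0.00443). Reads fitted to RAB3A transcripts numbered 23, 7, 33 and 14, under the mean of 20 reads, and were not tested. Their log2 ratios were -1.74 and -1.05 with the knockdown and 0.71 and 1.41 with azacytidine. The share of RAB3A reads in transcripts was 95.8%, 100%, 70.2% and 73.7%, so part of the azacytidine rise lay in reads that fitted no transcript. RAB3A was the 1 member called in both comparisons. Neither additive model called it for the knockdown (edgeR log2 ratio -1.53, adjusted p = 0.41; DESeq2 -1.67, adjusted p = 1.00) or for azacytidine, where adjusted p-values were 0.0561 with edgeR and 0.399 with DESeq2.

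RAB3C, a related Rab3 with more reads, had 73, 97, 59 and 49 reads, and no pair passed the test. RAB3B had 50, 59, 43 and 30 reads and log2 ratios between -0.48 and 0.11. Among RAB3A transcripts was one with an exon outside the annotation (chromosome 19, 18203456 to 18203607), carried by 3, 4, 3 and 2 reads in the order control, knockdown, azacytidine and combined. Its reads were too few to compare.

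Of the vesicle proteins, 4 could be tested (SYN1, SYN3, SV2A and DNAJC5), and SYN3 and SV2A passed with azacytidine in both pairs. The azacytidine log2 ratios of the 4 lay between 0.51 and 1.42 with the non-targeting guide and between 0.41 and 1.24 with the TDP-43 guide. SYN3 (ENSG00000185666.16, chromosome 22, 32507820 to 33058381, minus strand), a synapsin, a family that tethers vesicles to the cytoskeleton, had 25 reads in the control, 38 in the knockdown, 54 in the azacytidine and 64 in the combined library. Both libraries with azacytidine lay above both without it. SYN3 rose by 2.68-fold (log2 1.42, 95% exact interval 0.73 to 2.18, adjusted exact p = 0.000229) and by 2.37-fold (log2 1.24, 0.65 to 1.87, adjusted exact p = 0.000106).

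SV2A, a vesicle glycoprotein and the target of the antiepileptic drug levetiracetam, had 58, 89, 94 and 112 reads. It passed the test with azacytidine in both pairs (log2 1.02 and 0.83, adjusted exact p = 0.000208 and 0.000279), below the log2 minimum of 1 in the second. Other counts of SV2A did not pass: sums of transcript reads gave 0.44 and 0.44 (adjusted exact p = 0.342 and 0.217). Unique counts gave -0.69 and 1.09 (adjusted exact p = 0.421 and 0.124), with the sign turned in the first pair. DNAJC5, the chaperone cysteine string protein, had 75, 79, 85 and 74 reads and passed in no pair. SYN1 had 24, 19, 36 and 26 reads, and its azacytidine log2 ratios of 0.90 and 0.94 had adjusted exact p-values of 0.0656 and 0.0727.

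SV2C, an SV2 form restricted to fewer neuron types than SV2A, is named after its values were seen. It had 32 reads in the control, 34 in the knockdown, 3 in the azacytidine and 2 in the combined library. Its 2 levels without azacytidine were alike, and both with it were near the detection limit. Its mean lay below 20 reads. With a minimum mean of 5 reads it fell with azacytidine in both pairs (log2 -2.89 and -3.29, adjusted exact p = 0.000139 and 1.86e-05). SYN2 had 4 to 12 reads and SYP, the vesicle marker synaptophysin, had 6 to 11, too few to test.

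Synaptotagmins, of which SYT1 and SYT7 act as calcium sensors, kept their order of magnitude. SYT1 had 213 reads in the control, 309 in the knockdown, 202 in the azacytidine and 146 in the combined library. It was higher in the knockdown than in the control library (log2 0.39, adjusted exact p = 0.0171) and lower in the combined than in the azacytidine library (log2 -0.44, adjusted exact p = 0.0388). SYT4, a calcium-insensitive form, had 138, 162, 182 and 112 reads. It passed in azacytidine against control (log2 0.73, adjusted exact p = 9.96e-05) and in combined against azacytidine (log2 -0.67, adjusted exact p = 0.00157). In CPM the combined library was the lowest for SYT1 (301 against 344 to 451), while for SYT4 the azacytidine library stood above the other 3 (368 against 223 to 236). SYT11 with 106 to 158 reads and SYT7 with 70 to 87 reads passed in no pair, and SYT5 with 31 to 55 reads passed in 1, azacytidine against control (log2 0.89, adjusted exact p = 0.0336).

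In the SNARE fusion machinery, VAMP2, the vesicle SNARE synaptobrevin-2, was lower in both libraries with the TDP-43 guide. It had 60 reads in the control, 38 in the knockdown, 66 in the azacytidine and 34 in the combined library, so the 2 kinds of library did not overlap. The log2 ratios of -0.80 and -0.92 passed the test (adjusted exact p = 0.0431 and 0.018) but not the log2 minimum. Without a fold minimum, 2.77% of all genes were higher and 0.749% lower in both knockdown pairs, and among members these were RIMS1 (higher), RAB3A and VAMP2 (lower). Sums of reads fitted to transcripts gave VAMP2 log2 ratios of -0.63 and -0.83, neither of which passed (adjusted exact p = 0.28 and 0.13). With a minimum mean of 5 reads the first VAMP2 pair had an adjusted exact p of 0.0543.

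NSF, the ATPase that takes spent SNARE complexes apart, had 142, 138, 88 and 114 reads, and NAPB, its beta-SNAP cofactor, had 76, 88, 91 and 82. NSF has a near-identical partial copy in the genome, so its reads may be shared. NAPB passed in 1 pair, azacytidine against control (log2 0.59, adjusted exact p = 0.0401). SNAP25 had 40, 58, 40 and 29 reads and STX1A, the plasma membrane syntaxin, had 16, 10, 28 and 28. STX1A was higher in the combined than in the knockdown library (log2 1.94, adjusted exact p = 0.000434), while azacytidine against control gave 1.12 with an adjusted exact p of 0.0535.

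Of the complexins, which clamp and promote fusion, CPLX2 had 41, 40, 44 and 59 reads and passed in combined against knockdown (log2 1.05, adjusted exact p = 0.00133). CPLX1 had 6, 11, 19 and 29 reads, both azacytidine libraries above both others, and lay under the mean of 20. With a minimum mean of 5 reads CPLX1 was called higher with azacytidine (log2 1.91 and 1.86), as were 342 of 13789 genes. VAMP1 had 6 to 11 reads. STXBP5 (tomosyn), which competes with VAMP2 for SNARE partners, is named after its values were seen. It had 45 reads in the control, 161 in the knockdown, 44 in the azacytidine and 36 in the combined library. The knockdown library alone stood apart, 3.21-fold above the control (log2 1.68, adjusted exact p = 3.37e-12), and the other knockdown pair gave a log2 ratio of -0.26.

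The active zone scaffold had the highest median of the roles in knockdown against control. All 11 members had log2 ratios above 0 there, from 0.51 to 1.41, with a median of 0.89 against 0.18 over all genes. Of all 8145 genes, 5251 lay above 0 in that pair. With azacytidine 9 of 11 lay above 0, beside 4367 of all genes, and the median was 0.53 (0.05 over all genes). RIMS2, ERC2, PPFIA2 and RIMBP2 passed the test with a log2 ratio of at least 1 in the first pair, and PPFIA3 did so in the second. The scaffold genes are long, and over the 40 members gene span and the log2 ratio of the first pair had a Spearman's rho of 0.48, given as a description over genes of the same 2 libraries. In the second pair rho was 0.0045. After a trend with transcript length over all genes was removed, the median of the 11 was 0.46 without and 0.41 with azacytidine. Counted from reads fitted to transcripts, 9 of the 11 could be tested, with medians of 0.64 and 0.22.

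RIMS1, which recruits calcium channels and Rab3 to the release site, had 108 reads in the control, 200 in the knockdown, 85 in the azacytidine and 143 in the combined library. Both libraries with the TDP-43 guide lay above both without it. It passed in both knockdown pairs, below the fold minimum (log2 0.74 and 0.77, adjusted exact p = 0.000234 and 0.00124). Most RIMS1 reads fitted no transcript: those that did numbered 37, 62, 45 and 40, with log2 ratios of 0.64 and -0.01 that did not pass (adjusted exact p = 0.228 and 1.00). The second of these differs from that of all reads of the gene.

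RIMS2, its paralog, had 119, 273, 115 and 145 reads and was 2.07-fold higher in the knockdown than in the control library (log2 1.05, adjusted exact p = 3.97e-10). With azacytidine the knockdown ratio was 0.36, adjusted exact p = 0.18. CASK, a scaffold kinase that binds neurexins, had 211, 333, 130 and 106 reads. The combined library was 2.21-fold below the knockdown library (log2 -1.15, adjusted exact p = 1.21e-12), while azacytidine against control gave -0.37 with an adjusted exact p of 0.0745.

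The liprins, adaptors that organise the active zone, did not move together. PPFIA3 had 27, 46, 43 and 98 reads and passed with azacytidine in both pairs (log2 0.99 and 1.58, adjusted exact p = 0.0243 and 2.31e-09). In sums of transcript reads only the second PPFIA3 pair passed (log2 0.70 and 0.97, adjusted exact p = 0.266 and 0.0107). PPFIA4 had 14, 32, 30 and 45 reads and also passed in both (log2 1.40 and 0.99, adjusted exact p = 0.0113 and 0.0108). PPFIA2, named after its values were seen, had 69, 203, 43 and 64 reads and was 2.23-fold lower in the combined than in the knockdown library. Its knockdown library was far above the other 3.

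Of the large scaffolds, PCLO (Piccolo) had 56, 115, 78 and 86 reads and BSN (Bassoon) 35, 56, 36 and 68. PCLO passed in knockdown against control (log2 0.89, adjusted exact p = 0.00146) and BSN in combined against azacytidine (log2 0.94, adjusted exact p = 0.0156), so neither passed in both. ERC1 had 32 to 82 reads and RIMBP2 46 to 103, both highest in the knockdown library. ERC2 had 36 to 95 reads, and in CPM its knockdown (139) and combined (140) libraries were alike.

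Endocytic genes were split by the combined library. DNM1, the main neuronal dynamin, which cuts vesicles from the membrane, had 155 reads in the control, 120 in the knockdown, 171 in the azacytidine and 209 in the combined library. It passed with azacytidine in both pairs (log2 0.47 and 1.30, adjusted exact p = 0.0181 and 3.33e-14). In sums of transcript reads both DNM1 pairs passed too (log2 1.00 and 1.15, adjusted exact p = 0.00111 and 9.55e-06). CIZ1 overlaps the DNM1 locus on the opposite strand and had 77, 155, 100 and 131 reads. DNM1 was the one member overlapped by another gene with a mean of at least 20 reads. SNAP91, the clathrin adaptor AP180, had 136, 193, 171 and 33 reads. It was 5.02-fold lower in the combined than in the azacytidine library (log2 -2.33, adjusted exact p = 1.37e-20) and had a log2 ratio of 0.36 in the other knockdown pair.

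DNM3, named after its values were seen, had 67, 98, 71 and 27 reads and was 2.55-fold lower in the combined than in the azacytidine library (adjusted exact p = 0.000279). BIN1, an amphiphysin relative, had 56, 45, 57 and 89 reads. BIN1 was 2.78-fold higher in the combined than in the knockdown library (log2 1.48, adjusted exact p = 7.27e-08). AMPH with 23 to 59 reads passed in 1 pair (combined against knockdown, log2 -0.84, adjusted exact p = 0.0344). SYNJ1 with 42 to 65 reads passed in none, and SH3GL2 with 12 to 16 was not tested.

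Among vesicular transporters, which set the transmitter of a neuron, SLC17A6 (glutamate, VGLUT2) had 101 reads in the control, 170 in the knockdown, 103 in the azacytidine and 82 in the combined library. It was higher in the knockdown than in the control library (log2 0.60, adjusted exact p = 0.00697) and lower in the combined than in the knockdown library (log2 -0.55, adjusted exact p = 0.012). SLC17A7 (glutamate, VGLUT1) had 17, 16, 25 and 32 reads and passed in combined against knockdown (log2 1.48, adjusted exact p = 0.0023). SLC32A1 (GABA, VGAT) had 1, 1, 2 and 2 reads, which is under the limit of 3 reads that a count of 0 allows. Markers of GABAergic neurons were also sparse: 6 of them together had 18, 6, 4 and 7 reads, and GAD2 was at 0 in 3 libraries.

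Counted by all reads of a gene, the neurexins went opposite ways with azacytidine. NRXN3 (chromosome 14, 78170373 to 79868291, plus strand) had 76 reads in the control, 73 in the knockdown, 7 in the azacytidine and 0 in the combined library. Its levels without azacytidine were alike, and the libraries with azacytidine were far below. NRXN3 fell 8.13-fold with the non-targeting guide (log2 -3.02, 95% exact interval -4.48 to -2.00, adjusted exact p = 5.99e-11). With the TDP-43 guide it was at least 17.2-fold lower, set against a floor of 3 reads in the combined library (adjusted exact p = 5.39e-16). Only 15.4% of its reads fitted a transcript (10, 13, 1 and 0 reads). NRXN2 had 42, 72, 70 and 77 reads and passed with azacytidine in both pairs (log2 1.06 and 0.60, adjusted exact p = 0.0011 and 0.032). In sums of transcript reads the second NRXN2 ratio was -0.07 (adjusted exact p = 0.935).

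Without a fold minimum, 7 of 40 members were higher with azacytidine in both pairs and 1 was lower, beside 6.31% and 9.96% of all genes. The higher ones were DNM1, NRXN2, PPFIA3, PPFIA4, RAB3A, SV2A and SYN3, and the lower one was NRXN3. A list of other presynaptic genes, 61 of them tested, gave 0 calls for the knockdown and, for azacytidine, 7 higher and 2 lower by the rule with the fold minimum (2.93% and 6.86% of all genes). Among those higher were NAPA, the alpha-SNAP cofactor of NSF (17, 17, 38 and 47), DOC2A (21, 21, 38 and 37), DOC2B (19, 20, 45 and 32), SV2B (8, 22, 20 and 50), FCHO1 (39, 21, 63 and 65) and TSPOAP1, a RIM-binding protein (30, 82, 80 and 127). Among those lower was CADPS2, a priming factor of dense-core vesicles (71, 120, 5 and 2). In the crosswise pairing EPS15 and SYNGR1 were called higher, beside 0.405% of all genes. The median log2 ratio of the 61 was 0.39 and -0.04 in the azacytidine pairs. In the knockdown pairs 47 and 29 of the 61 lay above 0, beside 5251 and 4367 of all 8145 genes.

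A read counted for a gene need not fit one of its transcripts, for example when it comes from unspliced or partly spliced RNA. Of the members' reads 62.0% (control), 55.5% (knockdown), 70.3% (azacytidine) and 64.7% (combined) fitted a transcript, against 63.9%, 58.5%, 68.1% and 60.4% of all reads. The share was lower in genes of longer span (Spearman's rho -0.66 over 40 members, across genes). STXBP5 had 13, 29, 20 and 14 transcript reads of its 45, 161, 44 and 36, so that most of the excess in the knockdown library lay in reads that fitted no transcript. SNAP91 had 69, 81, 62 and 15, and its low value in the combined library was also seen in transcript reads.

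The share itself was tested in the same pairs with Fisher's exact test (two-sided), an adjusted p-value under 0.05 and a change of at least 10 percentage points, a comparison added after the values were seen. PCLO was the 1 member called for the knockdown, beside 0.885% of 8133 genes called lower and 0.0615% higher. Its share in transcripts was 49 of 56 reads (87.5%) in the control and 75 of 115 (65.2%) in the knockdown library. With azacytidine it was 74 of 78 (94.9%) without and 68 of 86 (79.1%) with the TDP-43 guide, with adjusted Fisher's exact p-values of 0.0245 and 0.0471. CASK was the 1 member called for azacytidine, beside 0.775% of genes called higher and 0.184% lower. Its share was 120 of 211 (56.9%) in the control and 108 of 130 (83.1%) in the azacytidine library, and 198 of 333 (59.5%) in the knockdown and 105 of 106 (99.1%) in the combined library. The adjusted Fisher's exact p-values were 4.81e-05 and 1.15e-15. Counted as transcript reads alone, CASK thus had 120, 198, 108 and 105 reads.

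**Figure D3:**
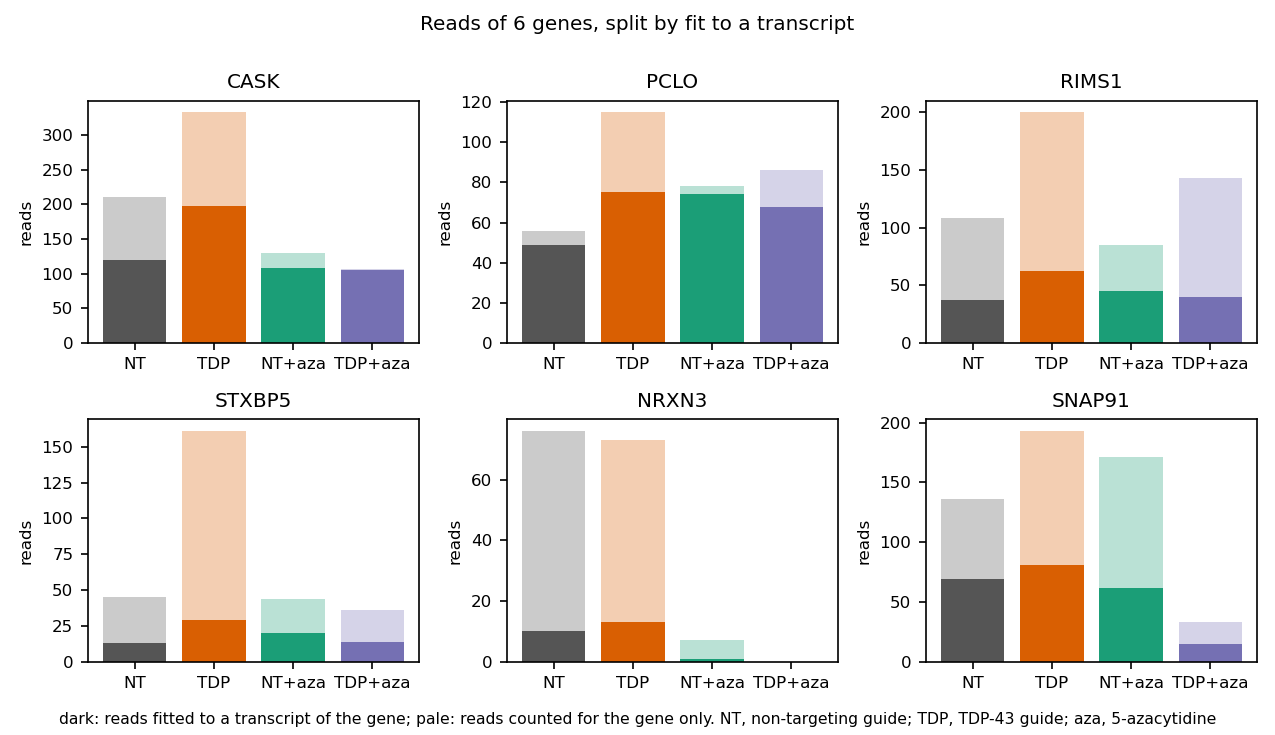
Reads of 6 genes in each library, with reads fitted to a transcript (dark) below reads counted for the gene alone (pale); each bar starts at 0 and is 1 library. CASK has 1 pale read in the combined library, and STXBP5 in the knockdown library is mostly pale.

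Isoform use was examined for transcripts and for exons with the same test and pairs, and with adjustment over all transcripts or exon events tested. Reads were counted through the transcripts they were assigned to, as estimated counts. A read that is not full-length need not itself cover the exon or start it is counted for. In 31 members 98 transcripts could be tested, and in 25 members 129 exon events. For the knockdown 0 transcripts and 0 exon events of members were called, beside 0.361% and 0.348% of 15531 transcripts called higher and lower, and 0.314% and 0.27% of 18143 exon events. At an unadjusted p under 0.05 in both pairs, 3 transcripts and 3 exon events were reached, in CPLX2 and SV2A. For azacytidine 1 transcript was higher and 2 were lower (0.496% and 0.637% of all), and 3 exon events were higher and 3 lower (0.761% and 0.54% of all). All of these lay in CASK and RIMS2. In the crosswise pairing 0 transcripts, 0 exon events and 0 shares of reads in transcripts of members were called, beside 0.232% and 0.296%, 0.248% and 0.298%, and 0.221% and 0.197% of all.

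The CASK events concern 3 places in the coding sequence. The exons are shown 5′ to 3′ in transcript sense with T for U, from GENCODE 29 transcripts on GRCh38. They are given because the assigned transcripts differ by these bases. Capitals mark the 18-base exon between 20 bases of each neighbouring exon in the first, and the bases absent from the short form in the long forms.
CASK exon, 18 bases (chrX:41622617-41622634, minus strand): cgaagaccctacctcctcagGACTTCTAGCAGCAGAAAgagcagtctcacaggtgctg
CASK long form, 81 bases (chrX:41534893-41534973, minus strand): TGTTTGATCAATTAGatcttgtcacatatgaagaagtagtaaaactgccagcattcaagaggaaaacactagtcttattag
CASK long form, 131 bases (chrX:41853097-41853227, minus strand): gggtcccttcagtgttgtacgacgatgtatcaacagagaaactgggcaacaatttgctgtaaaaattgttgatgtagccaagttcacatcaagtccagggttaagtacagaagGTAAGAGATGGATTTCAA

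The 81-base form begins 15 bases upstream of the 66-base form. Among reads assigned to transcripts that span this place, it was used by 52 of 120 in the control (43.3%) and 85 of 189 in the knockdown library (44.97%). With azacytidine it was used by 15 of 107 (14.0%) and in the combined library by 1 of 99 (1.01%). The libraries without azacytidine were alike and both with it were lower, by 29.3 and 44.0 percentage points (adjusted Fisher's exact p = 9.94e-05 and 3.36e-15). The 66-base form rose by the same amounts, since the forms replace each other. Reads that fitted 1 transcript alone gave 14 of 27, 26 of 49, 3 of 22 and 0 of 27 for the long form. Full-length reads gave 7 of 13, 7 of 13, 0 of 10 and 0 of 9.

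The 18-base exon was included in 88 of 120 reads (73.3%) without and 104 of 107 (97.2%) with azacytidine under the non-targeting guide. Under the TDP-43 guide it was in 124 of 190 (65.3%) and 88 of 99 (88.9%), a rise in both pairs (adjusted Fisher's exact p = 2.39e-05 and 0.000429). In full-length reads it was present in 6 of 13, 6 of 13, 10 of 10 and 9 of 9. The 131-base form, which extends a 113-base exon by 18 bases at its 3′ end, was in 51 of 120 reads (42.5%) without and 69 of 107 (64.5%) with azacytidine under the non-targeting guide. Under the TDP-43 guide the shares were 76 of 189 (40.2%) and 64 of 98 (65.3%), again higher in both pairs (adjusted Fisher's exact p = 0.0271 and 0.00199). Few reads there were unique to 1 transcript, and 4 of 27, 8 of 49, 7 of 22 and 5 of 28 of them carried the long form. In these unique reads the share was higher with azacytidine under the non-targeting guide but nearly the same under the TDP-43 guide. The rise under the TDP-43 guide thus rests on estimated assignment. The transcript ENST00000644219.1 of CASK had 24 of 120, 45 of 198, 0 of 108 and 0 of 105 reads, and ENST00000378168.8 had 48, 73, 69 and 64.

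BIN1 had higher inclusion of several coding exons with azacytidine, and these exons passed the adjusted test in the second pair only. Its 24-base exon is shown as an example, with capitals for the exon.
BIN1 exon, 24 bases (chr2:127053422-127053445, minus strand): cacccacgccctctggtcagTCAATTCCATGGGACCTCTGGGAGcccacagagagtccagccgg
It was included in 29 of 49, 22 of 39, 35 of 42 and 51 of 56 reads (59.2%, 56.4%, 83.3% and 91.1%). The adjusted Fisher's exact p-values with azacytidine were 0.181 and 0.00365. A 93-base exon (127068163 to 127068255) was in 38 of 48, 27 of 36, 31 of 31 and 49 of 49 reads. Its adjusted Fisher's exact p-values were 0.0715 and 0.00537.

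PPFIA3 has a 27-base coding exon, named after its values were seen, with capitals again for the exon.
PPFIA3 exon, 27 bases (chr19:49146166-49146192, plus strand): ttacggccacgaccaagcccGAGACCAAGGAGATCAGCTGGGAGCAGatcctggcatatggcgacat
It was present in 20 of 24, 27 of 37, 34 of 34 and 51 of 52 reads (adjusted Fisher's exact p with azacytidine 0.207 and 0.01).

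RIMS2 on chromosome 8 has an exon with alternative starts 3 bases apart. The 30-base form (104041329 to 104041358, plus strand, coding) had 10 of 46 reads in the control, 15 of 81 in the knockdown, 0 of 48 in the azacytidine and 0 of 59 in the combined library. Its share fell by 21.7 and by 18.5 percentage points (adjusted Fisher's exact p = 0.0115 and 0.00435), and the counts of 0 allow shares of up to 6.25% and 5.08%. Only 1, 1, 0 and 0 of these reads fitted a single transcript. Transcripts with the first exon cluster at 103500610 to 103501062 were assigned 33 of 47, 55 of 81, 45 of 49 and 51 of 59 reads. Those with the cluster at 103818945 to 103819629 were assigned 11, 18, 4 and 4. Full-length RIMS2 reads numbered 2, 0, 0 and 0, so the starts come from assignment. Neither start was called.

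CPLX2 and SV2A came nearest to a call with the knockdown, and their exons are named after the values were seen. CPLX2 has a 178-base exon (chromosome 5, 175805444 to 175805621, plus strand) that is non-coding in GENCODE 29. Among reads assigned to transcripts that span it, it was in 0 of 20 in the control and 9 of 19 in the knockdown library. The counts were 0 of 24 in the azacytidine and 6 of 25 in the combined library. Both libraries with the TDP-43 guide had it and both without lacked it. The change of 47.4 percentage points passed (adjusted Fisher's exact p = 0.00953) and that of 24.0 points did not (adjusted Fisher's exact p = 0.232). The counts of 0 allow shares of up to 15.0% and 12.5%, and 3 reads in each TDP-43 guide library fitted this unannotated combination of exons alone. SV2A has a short form of its exon at 149913219 to 149914187 on chromosome 1 (minus strand), of 795 instead of 969 bases, which is absent from the annotation. It had 12 of 56, 25 of 65, 16 of 66 and 30 of 64 reads, that is 21.4%, 38.5%, 24.2% and 46.9%, with adjusted Fisher's exact p-values of 0.29 and 0.143 for the knockdown.

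**Figure D4:**
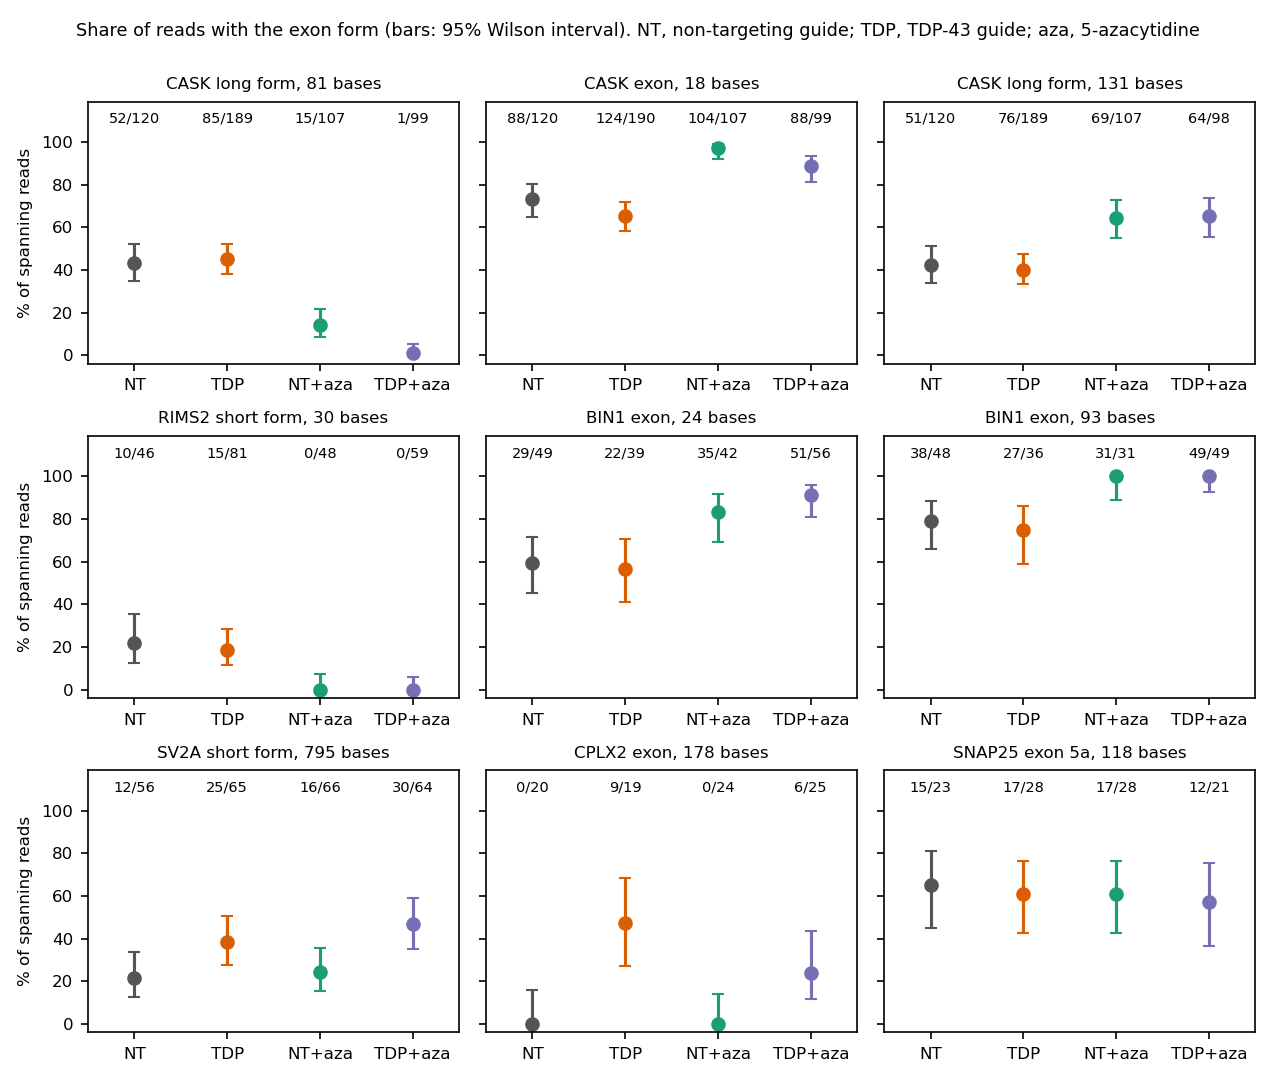
Share, in percent, of reads assigned to transcripts spanning an exon whose transcript carries the named form, for 9 forms in the 4 libraries. NT is the non-targeting guide, TDP the TDP-43 guide and aza 5-azacytidine. Points are libraries, bars are 95% Wilson intervals and the fractions give estimated reads. The CASK and RIMS2 panels separate the libraries with and without 5-azacytidine, the CPLX2 panel separates those with and without the TDP-43 guide, and SNAP25 exon 5a lies between 57.1 and 65.2%.

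Textbook alternative exons were examined at the depth available. SNAP25 has a pair of mutually exclusive exons, 5a and 5b, of which 5b takes over as neurons mature. DNM1 has a similar pair, 10a and 10b. They are given because the choice between near copies is what was compared, with capitals for the bases that differ within each pair.
SNAP25 exon 5a (chr20:10292882-10292999, plus strand): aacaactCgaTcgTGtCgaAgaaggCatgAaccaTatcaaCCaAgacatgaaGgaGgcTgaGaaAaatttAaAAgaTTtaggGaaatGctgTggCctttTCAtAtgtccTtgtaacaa
SNAP25 exon 5b (chr20:10293161-10293278, plus strand): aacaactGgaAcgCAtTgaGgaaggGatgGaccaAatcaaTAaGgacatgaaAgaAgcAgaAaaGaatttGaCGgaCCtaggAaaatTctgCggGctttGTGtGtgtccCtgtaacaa
DNM1 exon 10a (chr9:128224251-128224389, plus strand): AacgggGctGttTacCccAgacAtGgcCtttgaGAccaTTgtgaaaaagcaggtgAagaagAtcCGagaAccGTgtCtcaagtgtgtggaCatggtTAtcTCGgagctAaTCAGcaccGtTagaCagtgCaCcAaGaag
DNM1 exon 10b (chr9:128226035-128226173, plus strand): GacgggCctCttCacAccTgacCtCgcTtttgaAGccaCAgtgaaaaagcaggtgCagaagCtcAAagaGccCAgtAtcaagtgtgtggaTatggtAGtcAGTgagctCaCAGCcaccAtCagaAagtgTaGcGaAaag

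The SNAP25 exons differ at 31 of 118 bases and the DNM1 exons at 39 of 139. Exon 5a was in 15 of 23, 17 of 28, 17 of 28 and 12 of 21 SNAP25 reads (57.1 to 65.2%), and 5b in 7 of 23, 8 of 28, 10 of 28 and 7 of 21 (28.6 to 35.7%). Thus 5a was the more frequent form in each library, and no pair passed. In DNM1, 10a was in 37 of 49, 48 of 57, 77 of 89 and 80 of 100 reads (75.5 to 86.5%) and 10b in 12 of 49, 9 of 57, 12 of 89 and 20 of 100 (13.5 to 24.5%). Differences between the libraries did not pass the test there either.

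Other known forms were thinly covered. NRXN2 reads were mostly assigned to transcripts with the upstream start that gives the long alpha form (18 of 24, 40 of 58, 37 of 46 and 36 of 40). Those with the downstream start, at 64642539 to 64643486, had 5, 1, 2 and 1. A further start at 64712970 to 64713911 had 0, 13, 4 and 1 NRXN2 reads. Only 3 of the 24 NRXN2 reads in the control were full-length, so most of these starts come from assignment. NRXN3 reads were mostly assigned to the downstream start at 79279339 to 79280538 (10 of 10, 8 of 13, 1 of 1 and 0 of 0). In the knockdown library 4 of the 13 were assigned to the upstream start. The main 3′ end of SYN3 had 9 of 12, 24 of 27, 33 of 37 and 38 of 42 reads. The upstream 3′ end of SYN2 had 5 of 6, 8 of 10, 6 of 6 and 4 of 4, and SYN1 had 1 tested end with all reads. In SYT7, 3 variable coding exons were in 71.7 to 81.7%, 86.7 to 96.8% and 80.0 to 93.7% of reads, and no pair passed.

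Of the members' transcripts, 21 in 13 genes were unannotated: 2 with an exon outside the annotation, 9 with a new intron alone and 10 that recombine known exons. They took 5.55%, 5.16%, 5.39% and 8.71% of the members' transcript reads, against 7.08%, 6.72%, 7.97% and 8.97% over all genes. Besides RAB3A, SNAP91 had an unannotated last exon (chromosome 6, 83607955 to 83609545, minus strand), in 0, 1, 2 and 7 reads of the control, knockdown, azacytidine and combined libraries.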

How the data were processed

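The 4 libraries, 1 per group, were all used; groups came from the treatment labels. The authors used minimap2 and hg38, per the file headers, and Bambu for an extended annotation, per the source field of that annotation; versions were not given in the sources used here. The deposited tables give estimated counts per gene and per transcript, estimated counts of full-length molecules, and whole-number counts of reads that fit 1 transcript alone. The gene and unique counts the authors deposited were even (0 odd values, gene values to within 0.00031), and after halving 58.7 to 59.1% of nonzero gene values were odd, so 2 counts were taken as 1 read and rounded. Levels are CPM with TMM-scaled library sizes (edgeR 4.0.16). Log2 ratios used a pseudocount of 0.5 reads. Genes needed a mean of 20 reads. Transcripts and exon events needed 10 reads in total (events also 10 without the form) and a gene mean of 20 transcript reads. Exon shares used estimated counts of transcripts that span the exon. P-values were adjusted over all features tested (Benjamini-Hochberg). The tests compare 1 library with another, so their errors are counting errors. Additive models in edgeR and DESeq2 1.42.0 let the interaction serve as error. Full-length reads were 14.8 to 23.4% of the members' transcript reads. The tests were also run on data simulated with counting error only. Such data cannot show how the tests behave under variation between replicate libraries. Levels are not divided by length, so genes are not ranked against each other.

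The members and lists were chosen with earlier results of these data known. Genes are named by rule: those called or passing the test in both pairs, the 2 with most reads in each role (1 in roles of 3 or fewer), the transporters, called other presynaptic genes and known alternative exons; others were named after their values were seen. Some of the called other presynaptic genes are not reported here. Gene symbols came from a table of identifiers (60555 of 77187 matched). Exon sequences came from GENCODE 29, in which 99.96% of shared transcripts have the same exons.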

Additional observations from a re-analysis of the deposited data

Results flagged for a closer look

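Among the members, 2 genes had ratios of opposite sign in the 2 pairs of a comparison, each with an adjusted exact p-value under 0.05. The difference between the pairs was itself not tested. For SNAP91 the log2 ratio with azacytidine was 0.66 with the non-targeting guide (adjusted exact p = 0.000654) and -2.03 with the TDP-43 guide (adjusted exact p = 1.54e-16), a difference of -2.69. For SYT1 the log2 ratio with the knockdown was 0.39 without azacytidine and -0.44 with it, a difference of -0.83. In both genes the combined library was the lowest of the 4.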

How the results depend on the processing

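No paired analysis was possible because each group has 1 library, and all carry the same replicate number. RAB3A fell with the knockdown in all 10 gene-level alternatives that could test it, but 2 of these, the additive models, did not call it. NRXN3 was called for azacytidine in all 10 and SYN3 in 11 of 12 alternatives that tested them. RAB3A was called for azacytidine in 7 of 10, missing with the length trend removed (log2 0.82) and in both additive models. Unique counts and sums of transcript counts left RAB3A and NRXN3 below the read minimum, so they are not among the alternatives for either gene. Below, paired counts in parentheses give all features called higher and lower, of those tested. The members called for the knockdown, 1 in the main setting (51 and 28 of 8145), numbered 0 with unique counts (6 and 5 of 2982). They also numbered 0 with sums of transcript counts, an alternative chosen after seeing the data (5 and 6 of 6003). The additive edgeR (3 and 0 of 8145) and DESeq2 (4 and 3 of 8145) models called 0 as well. In those models 8 and 1 members had an unadjusted p under 0.05, a count not made over all genes. With a log2 minimum of 0.58, 1 member was higher and 2 were lower (176 and 52 of 8145). In the pair without azacytidine alone, 5 were higher and 1 lower (504 and 175 of 8145). In the pair with it, 1 was higher and 3 were lower (367 and 321 of 8145). For azacytidine 2 members were higher and 1 lower in the main setting (239 and 559 of 8145). Total counts gave 6 and 1 (316 and 494 of 8145), as did a log2 minimum of 0.58 (476 and 754 of 8145). A minimum mean of 5 reads gave 3 and 2 (342 and 851 of 13789), as did no minimum (251 and 696 of 39458). Unique counts gave 1 and 0 (14 and 115 of 2982), and counts not halved 4 and 2 (456 and 947 of 11091). The single pairs gave 5 and 1 (542 and 809 of 8145), and 8 and 6 (779 and 1373 of 8145). The additive DESeq2 model gave 0 and 1 (34 and 234 of 8145). Crosswise, 6 members passed in the first single pair (504 and 175 of 8145) and 4 in the second (321 and 367 of 8145), against 0 in both. For azacytidine, the 3 member transcripts called became 1 with unique counts (3 and 8 of 6407). They became 0 with full-length counts (3 and 6 of 2291) and 7 with counts not halved (335 and 413 of 28115). In the same order the 6 exon events became 0 (11 and 7 of 6837), 0 (4 and 4 of 1941) and 15 (563 and 436 of 33944). For the knockdown, with counts not halved, 0 transcripts became 3 (247 and 216 of 28115) and 0 events became 3 (297 and 279 of 33944). Unique counts could test 52 events and full-length counts 9 of the 129. Of genes that passed in both pairs below the fold minimum, RIMS1 (adjusted p = 0.0737), VAMP2 (0.16) and DNM1 (0.0718) missed in the first pair with the length trend removed. With no minimum on reads, VAMP2 missed in both pairs (0.134 and 0.066), PPFIA3 (0.0795) and DNM1 (0.0597) in the first and NRXN2 (0.101) in the second.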
